A study of Homo sapiens with 12 samples.

Results

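Collagen chains were the genes of the expression table whose symbol has the form COL, a number, A and a number, so that a symbol such as COL1A1 is a member and an antisense RNA named after it is not. The rule found 44 members among 20003 genes. By textbook class, 11 are fibrillar chains, 9 are network chains, 10 are FACIT chains (fibril-associated collagens with interrupted helices) and 14 belong to other types. They were compared by RNA-seq in 3 established human lines of EGFR-mutant lung adenocarcinoma, H1975, HCC827 and PC9. In each line 2 libraries came from cells that overexpressed ZNF263, a DNA-binding protein of the KRAB zinc finger family, and 2 from cells with a control vector. The groups were therefore PC9 with ZNF263 and PC9 with control, HCC827 with ZNF263 and HCC827 with control, and H1975 with ZNF263 and H1975 with control. Cells of all 6 groups were kept in DMEM and had been exposed to osimertinib, an inhibitor of EGFR, in steps. The labels do not say whether the cells were single clones or pools, or whether the 2 libraries of a group were made from different cultures, and p-values here therefore reflect only library-to-library spread, possibly technical.

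A collagen molecule is a rope of 3 alpha chains. Some types, such as III, VII and XVII, are built of the chain of a single gene, and others, such as V and VI, combine the chains of different genes. Fibrillar collagens such as type I and type V form the tension-bearing fibrils of connective tissue, and FACIT chains such as COL12A1 sit on the surface of these fibrils. Network collagens include type IV, the sheet of basement membranes, and the short-chain type VIII. Among the other types, collagen VI forms beaded filaments near cells, collagen VII anchors the basement membrane of epithelia to the stroma, and collagen XVII spans the cell membrane in hemidesmosomes. Epithelial cells normally make chiefly basement membrane and hemidesmosomal collagens, whereas fibrillar collagens are mainly products of fibroblasts and other mesenchymal cells.

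Expression was given as FPKM, a fragment count scaled to gene length and library size, so levels of different chains can be compared per length. ZNF263 itself had 39.3 and 39 FPKM with ZNF263, against 9.55 and 9.11 FPKM with the control vector, in PC9. It had 19.6 and 19.8 FPKM with ZNF263, against 13.2 and 11.8 FPKM with the control vector, in HCC827, and 39.1 and 39.8 FPKM with ZNF263, against 10.2 and 9.63 FPKM with the control vector, in H1975. The vector's gene was thus higher in every library labelled ZNF263, by the smallest margin in HCC827. For a gene of median length, 1 FPKM equalled 64.7 to 79.9 reads in libraries of PC9 and HCC827 and 118 to 128 reads in libraries of H1975. Levels set side by side across lines need care, because the table lacked values for 3383 genes in HCC827, for 3339 in H1975 and for 0 in PC9, so the lines may have been processed separately. Every change below is within a line.

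The summed level of the collagen chains was higher with ZNF263 in every line and by the widest margin in H1975 (the plot of summed FPKM by class). All 44 chains together summed to 582 ± 8.37 FPKM with ZNF263 and 271 ± 2.66 FPKM with the control vector in H1975 (SD, n = 2). Fibrillar chains summed to 252 ± 2.77 FPKM with ZNF263, against 49.8 ± 3.27 FPKM with the control vector. For network chains the sums were 90.3 ± 2.56 FPKM with ZNF263 and 8.64 ± 0.309 FPKM with the control vector. The FACIT chains summed to 108 ± 1.0 FPKM with ZNF263 and 10.5 ± 0.209 FPKM with the control vector. Of the 4 classes, only the other types had a lower sum with ZNF263, 131 ± 2.04 FPKM, against 202 ± 0.706 FPKM with the control vector. Single chains took uneven shares of these sums. COL8A1 was 95% of the network sum in H1975 cells with ZNF263 and 85.7% in those with the control vector. COL12A1 was 97.7% of the FACIT sum with ZNF263 and 81.1% with the control vector. COL1A2 was 65.9% of the fibrillar sum with ZNF263 and 29.2% with the control vector, and COL17A1 was 14.7% of the sum of other types with ZNF263 and 64.8% with the control vector. In PC9 the 44 chains summed to 171 ± 0.855 FPKM with ZNF263 and 159 ± 1.85 FPKM with the control vector, and in HCC827, where COL6A5 had no value, to 122 ± 2.76 FPKM with ZNF263 and 99.7 ± 4.33 FPKM with the control vector. The sums are a description and were not tested.

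**Figure D1:**
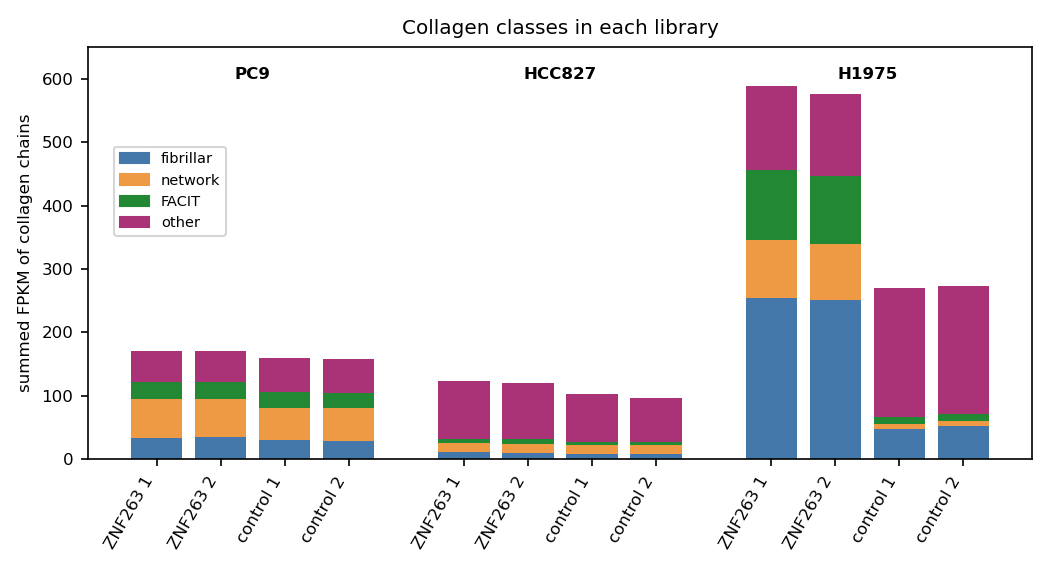
Summed FPKM (y axis) of the collagen chains in each of the 12 libraries (x axis), stacked by class. Each bar is 1 library. In H1975 the ZNF263 bars reach 588 and 576 FPKM and the control bars 269 and 273 FPKM, with the fibrillar, network and FACIT parts larger and the part of other types smaller.

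Changes were tested on log2(FPKM + 1) for the 24 chains that reached 1 FPKM in at least 2 of the 12 libraries, 7 fibrillar, 7 network, 4 FACIT and 6 of other types, while 20 chains stayed below this level. A chain was called at a limma adjusted p under 0.05 over all genes. In PC9, 6 of the 24 chains were higher with ZNF263 and 0 lower, so that 25% were called, where 11.3% of all genes tested were called, 7.21% higher and 4.12% lower. The median log2 change in PC9 was 0.022 for the chains and 0 for all genes. In HCC827, 8 were higher and 1 was lower, or 37.5%, where 19.5% of all genes were called, 13% higher and 6.44% lower, and the medians were 0.16 for the chains and 0.045 for all genes. In H1975, 13 were higher and 4 were lower, or 70.8%, where 64.2% of all genes were called, 32.1% higher and 32.1% lower. The medians there were 0.24 for the chains and 0.0025 for all genes. Of the genes called in HCC827, 66.9% were higher with ZNF263, but this share was 50.7% after median-of-ratios scaling and 50.3% after quantile normalization, with 8 and 7 chains higher and 1 lower in each. COL3A1 and COL24A1 passed the expression minimum only through the HCC827 libraries with ZNF263, so their place among the chains higher in HCC827 follows in part from that minimum.

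**Figure D2:**
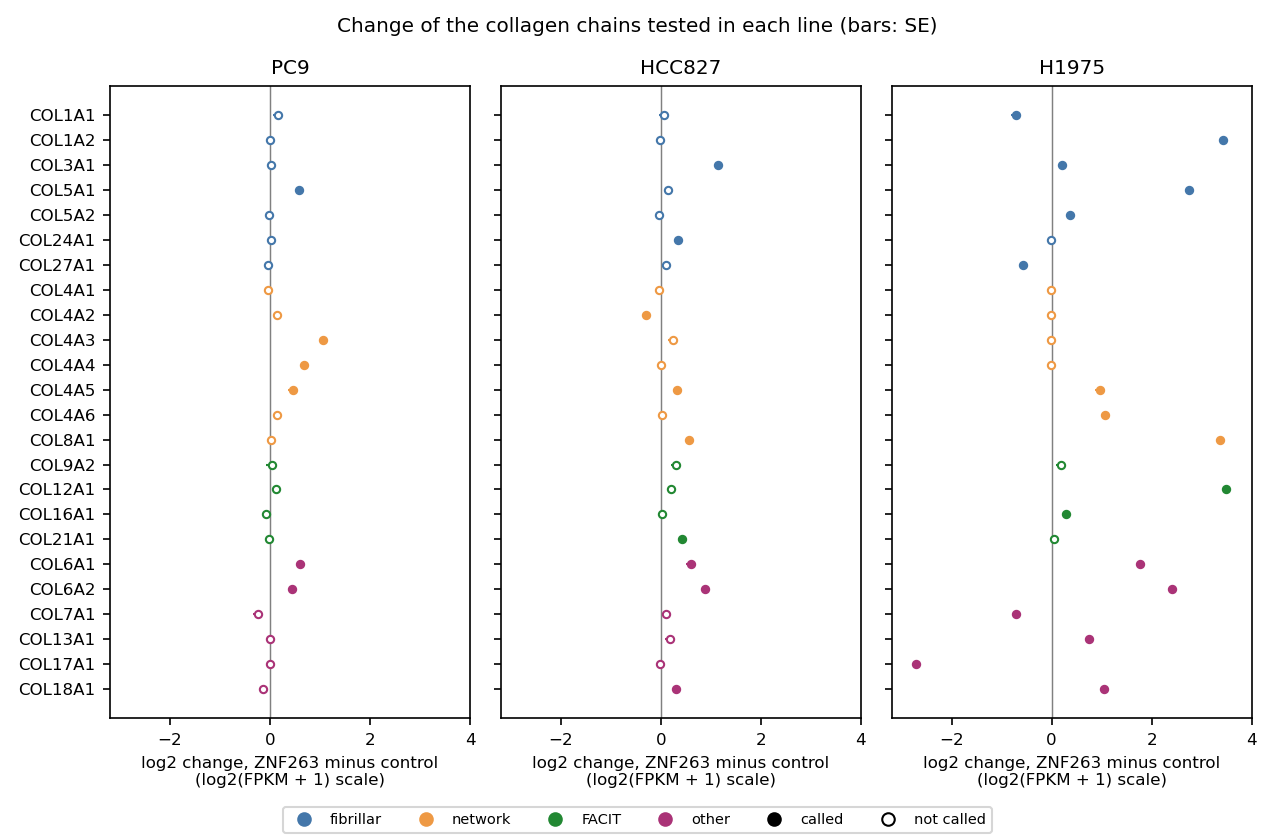
Change of the 24 chains tested (y axis, coloured by class) in each line, as the log2 change on the log2(FPKM + 1) scale (x axis, ZNF263 minus control). Bars are SE from limma, mostly hidden by the points, and filled points passed the test and open points did not. The changes in H1975 run between -2.7 for COL17A1 and 3.49 for COL12A1, and those in PC9 and HCC827 between -0.30 and 1.15.

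Upstream sequences are shown for 4 chains whose values carry the account, COL12A1, COL5A1 and COL6A2, which rose in H1975, and COL17A1, which fell there. Each is the 250 bases before a RefSeq start (GRCh38.p14), read 5′ to 3′ on the gene's own strand, chr6:75206054-75206303 (minus), chr9:134641553-134641802 (plus), chr21:46097862-46098111 (plus) and chr10:104085881-104086130 (minus). Capitals mark GGAGGA or its reverse complement TCCTCC, the repeat of the known ZNF263 motif, the TATA box letters TATAAA or TTTATA, and the CCAAT box letters CCAAT or ATTGG.
COL12A1: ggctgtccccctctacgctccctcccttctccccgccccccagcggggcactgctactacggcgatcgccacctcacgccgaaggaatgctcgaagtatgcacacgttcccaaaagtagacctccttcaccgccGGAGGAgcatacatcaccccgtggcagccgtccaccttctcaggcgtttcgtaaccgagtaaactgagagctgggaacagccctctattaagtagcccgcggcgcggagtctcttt
COL5A1: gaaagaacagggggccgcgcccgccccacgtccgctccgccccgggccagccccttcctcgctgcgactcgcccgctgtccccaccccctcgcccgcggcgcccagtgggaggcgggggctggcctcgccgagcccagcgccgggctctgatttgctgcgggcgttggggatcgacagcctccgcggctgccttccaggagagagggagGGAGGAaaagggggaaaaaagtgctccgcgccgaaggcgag
COL6A2: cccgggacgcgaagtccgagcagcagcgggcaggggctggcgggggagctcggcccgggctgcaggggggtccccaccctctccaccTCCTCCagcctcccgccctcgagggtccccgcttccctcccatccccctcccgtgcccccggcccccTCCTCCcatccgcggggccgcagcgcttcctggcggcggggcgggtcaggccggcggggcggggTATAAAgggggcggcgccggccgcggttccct
COL17A1: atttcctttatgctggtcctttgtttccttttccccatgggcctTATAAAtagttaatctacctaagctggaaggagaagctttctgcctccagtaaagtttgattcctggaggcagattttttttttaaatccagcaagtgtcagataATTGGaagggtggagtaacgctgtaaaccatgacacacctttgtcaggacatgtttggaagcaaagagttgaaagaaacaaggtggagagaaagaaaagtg
COL12A1 and COL5A1 hold GGAGGA once, COL6A2 holds TCCTCC at 2 places and a TATAAA close to the start, and COL17A1 holds TATAAA and a CCAAT box on the other strand but no GGAGGA. COL1A2 and COL8A1, which rose more in H1975 than COL5A1 and COL6A2, had no RefSeq window and could not be shown. The other tested chains without one were COL1A1, COL3A1, COL5A2 and COL6A1. A RefSeq window was found for 32 of the 44 chains and for 18 of the 24 tested. Of the 24 windows of those 18, 13 held GGAGGA (54.2%), where 31.8% of 35116 windows of all genes did. Not all of the 13 are separate, since the COL5A1 windows start 2 bases apart and those of COL4A1 and COL4A2 share a site. With overlapping windows joined, 11 of 20 stretches held it, but a joined stretch can exceed 250 bases and the windows of all genes were not joined. TATAAA was in 5 of the 24 (20.8%), where 10.7% of all windows held it, and CCAAT in 5 (20.8%), where 32.0% did. Whether the match went with direction was not tested. COL13A1, COL16A1 and COL4A5, which rose in H1975, hold GGAGGA. COL27A1, which fell in H1975, holds it at 2 places. COL4A1, which passed the test in no line, has it in the stretch it shares with COL4A2. COL18A1 and COL4A6, which rose in H1975, and COL4A3 and COL4A4, which rose in PC9, hold none in any of their windows. COL7A1, which fell in H1975, holds none, like COL17A1. A match of letters is not a measured binding site.

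Among the fibrillar chains, COL1A2, COL5A1, COL5A2 and COL3A1 rose and COL1A1 and COL27A1 fell in H1975. COL1A2, the alpha 2 chain of type I collagen (chr7:94394561-94431232, GRCh38), had 169 and 164 FPKM with ZNF263, against 14 and 15.1 FPKM with the control vector, in H1975. The 2 groups were far apart, an 11.4-fold difference of the means (log2 change 3.43 ± 0.080 (SE), limma adjusted p = 6.89e-12), and the change held rank 7 of 12258 genes from the top. COL1A1, the alpha 1 chain that makes up the greater part of a type I molecule (chr17:50183289-50201632), fell, with 9.52 and 9.05 FPKM with ZNF263, against 14.9 and 16.9 FPKM with the control vector (log2 change -0.71 ± 0.0928 (SE), limma adjusted p = 2.04e-05). The ratio of COL1A2 to COL1A1 was therefore 17.7 and 18.1 in the H1975 libraries with ZNF263, against 0.943 and 0.894 in those with the control vector. In HCC827, COL1A2 had 0.213 and 0.301 FPKM with ZNF263 and 0.349 and 0.183 FPKM with the control vector, groups that overlapped, and COL1A1 had 6.96 and 5.9 FPKM with ZNF263 and 6.51 and 5.71 FPKM with the control vector, which overlapped as well. COL1A2 was listed at 0 in all 4 PC9 libraries, where COL1A1 had 6.15 and 7.01 FPKM with ZNF263 and 5.81 and 5.82 FPKM with the control vector (adjusted p = 0.358).

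COL5A1, the alpha 1 chain of collagen V that helps to start type I fibrils (chr9:134641774-134844843), rose in H1975 to 69 and 69.6 FPKM with ZNF263, against 9.53 and 9.56 FPKM with the control vector (log2 change 2.74 ± 0.0644 (SE), limma adjusted p = 7.05e-12). It also rose in PC9, where it had 10.9 and 11.1 FPKM with ZNF263, against 7.2 and 6.81 FPKM with the control vector (log2 change 0.58 ± 0.0644 (SE), limma adjusted p = 7.83e-05). In HCC827 it stayed near the lower limit, with 0.116 and 0.158 FPKM with ZNF263 and 0.0155 and 0.0487 FPKM with the control vector (adjusted p = 0.152). Its partner chain COL5A2 moved much less in H1975, with 1.16 and 1.22 FPKM with ZNF263, against 0.614 and 0.776 FPKM with the control vector (log2 change 0.37 ± 0.0805 (SE), limma adjusted p = 0.00129), and the ratio of COL5A1 to COL5A2 there was 59.5 and 57.1 with ZNF263 and 15.5 and 12.3 with the control vector. In PC9, COL5A2 had 10.7 and 11.8 FPKM with ZNF263 and 11.6 and 11.1 FPKM with the control vector, overlapping groups, so the same ratio was 1.02 and 0.945 with ZNF263 and 0.623 and 0.615 with the control vector. COL5A2 in HCC827 had 0.163 and 0.251 FPKM with ZNF263 and 0.286 and 0.20 FPKM with the control vector and did not pass the test (adjusted p = 0.763).

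COL3A1, the chain of type III collagen, a partner of type I in soft tissues (chr2:188974320-189012746), was the chain that rose most in HCC827, with 1.88 and 1.82 FPKM with ZNF263, against 0.272 and 0.296 FPKM with the control vector (log2 change 1.15 ± 0.0735 (SE), limma adjusted p = 2.84e-06, rank 11 of 12266 from the top). Its level remained low there, and lower still elsewhere, with 0.349 and 0.267 FPKM with ZNF263 and 0.0634 and 0.217 FPKM with the control vector in H1975 and 0.040 and 0 FPKM with ZNF263 and 0 and 0.00879 FPKM with the control vector in PC9. COL3A1 passed the expression minimum only through the HCC827 libraries with ZNF263, so its call and rank there follow in part from that minimum. The H1975 call of COL3A1 (log2 change 0.20 ± 0.0735 (SE), limma adjusted p = 0.0294) was lost without the first ZNF263 library (adjusted p = 0.165) or without the first control library (adjusted p = 0.281). COL27A1, a fibrillar chain of cartilage and epithelia, fell in H1975 to 5.31 and 5.62 FPKM with ZNF263, against 7.97 and 9.15 FPKM with the control vector (log2 change -0.56 ± 0.0768 (SE), limma adjusted p = 3.08e-05). In PC9 it had 5.19 and 4.94 FPKM with ZNF263 and 5.29 and 5.2 FPKM with the control vector, and in HCC827 0.196 and 0.145 FPKM with ZNF263 and 0.0926 and 0.0711 FPKM with the control vector, neither of which passed the test. COL24A1 had 1.4 and 1.32 FPKM with ZNF263, against 0.787 and 0.95 FPKM with the control vector, in HCC827 (log2 change 0.34 ± 0.0639 (SE), limma adjusted p = 0.00299) and lay at or below 0.0417 FPKM in all PC9 and H1975 libraries. This chain, too, passed the minimum only through the HCC827 libraries with ZNF263.

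**Figure D3:**
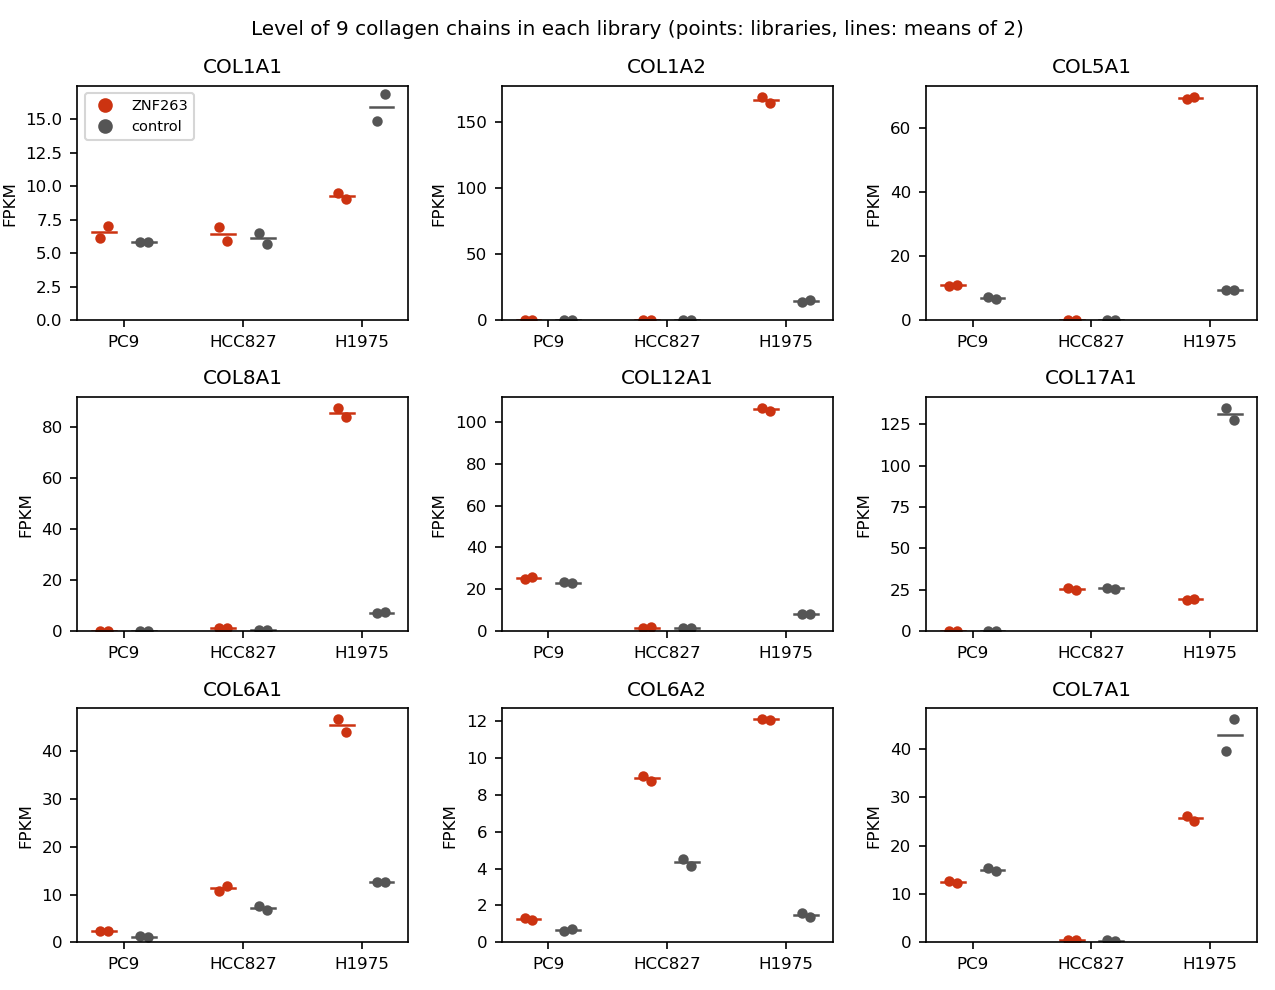
FPKM (y axis, linear from 0, a separate scale per panel) of 9 chains in each library by line (x axis), ZNF263 in red left of control in grey. Points are libraries and lines are means of 2. COL1A2, COL5A1, COL8A1 and COL12A1 reach their highest values in the H1975 libraries with ZNF263, while COL17A1, COL7A1 and COL1A1 are lower in them than in H1975 controls.

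The network chains split by line. In H1975 the short-chain collagen COL8A1, found around blood vessels and in the basement membrane of the cornea (chr3:99638475-99799226), rose to 87.5 and 84.1 FPKM with ZNF263, against 7.25 and 7.57 FPKM with the control vector. This was an 11.6-fold difference (log2 change 3.37 ± 0.0664 (SE), limma adjusted p = 4.06e-12) at rank 8 of 12258. In HCC827 the same chain had 1.27 and 1.29 FPKM with ZNF263, against 0.526 and 0.562 FPKM with the control vector (log2 change 0.56 ± 0.0664 (SE), limma adjusted p = 1.39e-04), and it was listed at 0 in 3 of the 4 PC9 libraries. Its partner COL8A2 reached at most 0.12 FPKM in any library and was below the minimum.

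Type IV chains assemble in fixed trios, COL4A1 with COL4A2 in almost every basement membrane, COL4A3 with COL4A4 and COL4A5 in specialised membranes such as those of kidney glomeruli and lung alveoli, and COL4A5 with COL4A6 in others. The genes lie head to head in pairs. In RefSeq the starts of COL4A1 and COL4A2 on chromosome 13 are separated by 126 bases, those of COL4A4 and COL4A3 on chromosome 2 by 418 bases and those of COL4A6 and COL4A5 on the X chromosome by 379 bases. The 126 bases between COL4A1 and COL4A2 (chr13:110307158-110307283, plus strand, GRCh38.p14, RefSeq starts) are shown because both genes are transcribed away from this stretch, and neither passed the test in PC9 or H1975. Capitals mark a CCAAT box and a GGAGGA.
COL4A1-COL4A2: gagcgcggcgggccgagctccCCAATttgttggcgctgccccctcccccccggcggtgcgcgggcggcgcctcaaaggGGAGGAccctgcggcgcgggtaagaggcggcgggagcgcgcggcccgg
COL4A2 had 38.3 and 36.2 FPKM with ZNF263 and 33.4 and 34.6 FPKM with the control vector in PC9 and COL4A1 had 6.09 and 6.36 FPKM with ZNF263 and 6.44 and 6.37 FPKM with the control vector, and neither passed the test (adjusted p = 0.301 and 0.819). In HCC827, COL4A2 was the chain that fell, with 5.78 and 6.53 FPKM with ZNF263, against 8.0 and 7.61 FPKM with the control vector (log2 change -0.30 ± 0.0721 (SE), limma adjusted p = 0.012), beside COL4A1 at 0.207 and 0.283 FPKM with ZNF263 and 0.266 and 0.283 FPKM with the control vector (adjusted p = 0.762). The COL4A2 call was lost without the first ZNF263 library (adjusted p = 0.122) or the first control library (adjusted p = 0.0547) and with a pseudocount of 0.1 FPKM (adjusted p = 0.087). In H1975 both chains stayed at or below 0.0292 FPKM in all 4 libraries.

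COL4A3 and COL4A4 rose together in PC9. COL4A3, whose noncollagenous domain is the Goodpasture antigen (chr2:227164565-227314792), had 2.69 and 2.42 FPKM with ZNF263, against 0.70 and 0.709 FPKM with the control vector (log2 change 1.06 ± 0.0884 (SE), limma adjusted p = 7.95e-06, rank 32 of 12623 from the top). COL4A4 (chr2:227002711-227164453) had 2.4 and 2.37 FPKM with ZNF263, against 1.18 and 1.03 FPKM with the control vector (log2 change 0.69 ± 0.0655 (SE), limma adjusted p = 2.34e-05). Both groups were clearly separated for both chains, and the ratio of COL4A3 to COL4A4 was 1.12 and 1.02 with ZNF263 and 0.593 and 0.69 with the control vector. In HCC827, COL4A3 had 1.65 and 1.66 FPKM with ZNF263 and 1.03 and 1.5 FPKM with the control vector (adjusted p = 0.081) and COL4A4 had 1.44 and 1.42 FPKM with ZNF263 and 1.37 and 1.46 FPKM with the control vector (adjusted p = 0.95). In H1975 neither exceeded 0.0177 FPKM in a library. The 250 bases before the COL4A3 start (chr2:227164374-227164623, plus strand), which reach into the window of COL4A4, are shown because the 2 chains moved together in PC9, and they hold none of the 3 motifs searched.
COL4A3: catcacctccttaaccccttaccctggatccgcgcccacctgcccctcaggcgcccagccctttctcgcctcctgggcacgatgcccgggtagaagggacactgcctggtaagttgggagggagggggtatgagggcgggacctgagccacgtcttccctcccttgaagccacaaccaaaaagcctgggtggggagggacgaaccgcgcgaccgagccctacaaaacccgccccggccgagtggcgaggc

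COL4A5 and COL4A6 rose in H1975, and COL4A5 was also called higher in PC9 and HCC827, with less stable calls. COL4A5 (chrX:108439844-108697545) had 1.42 and 1.25 FPKM with ZNF263, against 0.184 and 0.203 FPKM with the control vector, in H1975 (log2 change 0.96 ± 0.0978 (SE), limma adjusted p = 2.01e-06), and COL4A6 (chrX:108155607-108439497) had 3.04 and 3.11 FPKM with ZNF263, against 0.905 and 1.0 FPKM with the control vector (log2 change 1.06 ± 0.0684 (SE), limma adjusted p = 2.87e-08). Other genes of the region were higher too. The median log2 change of the tested genes within 5 Mb was 0.71 around COL4A5 and 0.70 around COL4A6 in H1975, and less that median the changes were 0.26 (adjusted p = 0.0374) and 0.36 (adjusted p = 5.76e-04). What raised the region was not tested. In PC9, COL4A5 had 9.68 and 10.2 FPKM with ZNF263, against 7.2 and 6.63 FPKM with the control vector (log2 change 0.47 ± 0.0978 (SE), limma adjusted p = 0.00824), where the regional median was -0.00011 and COL4A6 had 3.07 and 3.01 FPKM with ZNF263 and 2.72 and 2.59 FPKM with the control vector (adjusted p = 0.218). In HCC827, COL4A5 had 3.28 and 3.01 FPKM with ZNF263, against 1.94 and 2.67 FPKM with the control vector (log2 change 0.33 ± 0.0978 (SE), limma adjusted p = 0.0319) and COL4A6 stayed between 0.125 and 0.208 FPKM. In HCC827 the regional median around COL4A5 was 0.10, and less that median its change was 0.23 (adjusted p = 0.124), so that the call was lost. The HCC827 call was lost in 9 of 12 alternatives. It was lost without the first ZNF263 library (adjusted p = 0.183), the second ZNF263 library (adjusted p = 0.0642) or the first control library (adjusted p = 0.219), under quantile normalization (adjusted p = 0.0944), with a pseudocount of 0.1 FPKM (adjusted p = 0.0541) and with no minimum (adjusted p = 0.0702). In PC9 it was lost without the second ZNF263 library (adjusted p = 0.067) or the second control library (adjusted p = 0.093).

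**Figure D4:**
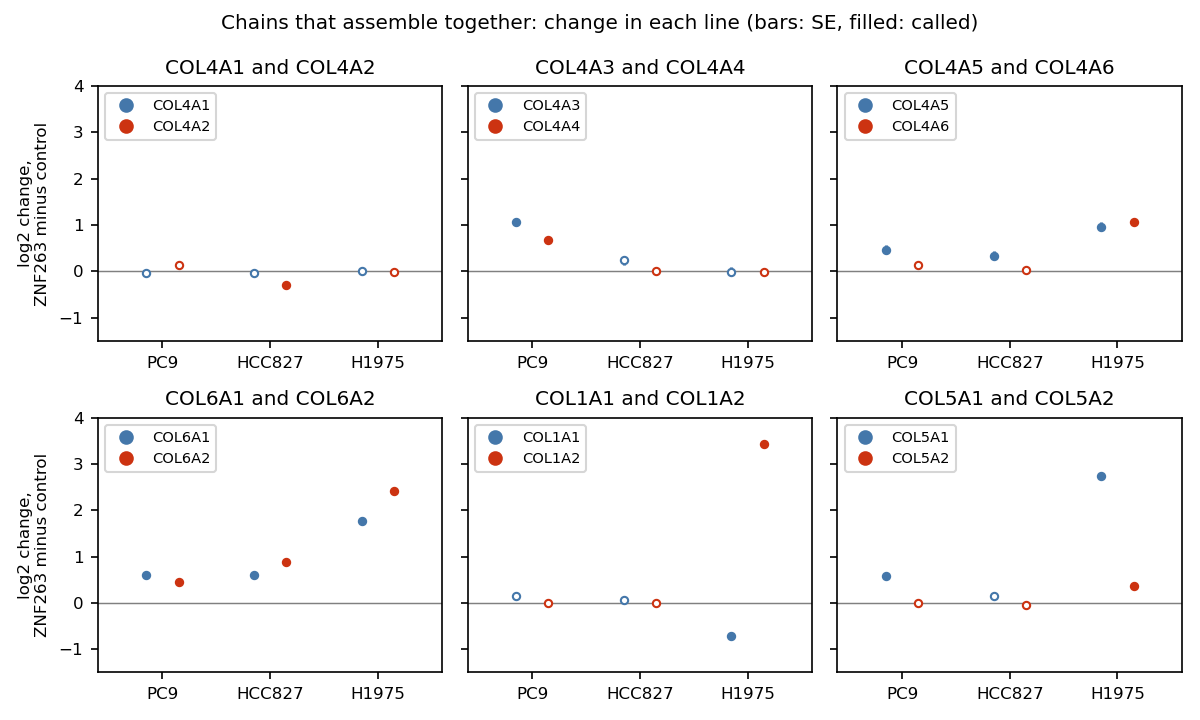
Log2 change (y axis, log2(FPKM + 1) scale, ZNF263 minus control) of 6 pairs of partner chains in each line (x axis). Bars are SE from limma, mostly hidden by the points, and filled points passed the test. COL1A2 and COL1A1 lie on opposite sides of 0 in H1975, at 3.43 and -0.71, whereas COL6A1 and COL6A2 lie above 0 in all 3 lines.

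Among the FACIT chains the change was concentrated in COL12A1 in H1975. COL12A1 (chr6:75084326-75206051), which coats type I fibrils under tension, had 106 and 105 FPKM with ZNF263, against 8.52 and 8.53 FPKM with the control vector. The 2 groups, each with libraries close together, were 12.4-fold apart (log2 change 3.49 ± 0.0664 (SE), limma adjusted p = 4.06e-12), the largest rise among the 24 chains tested and rank 4 of 12258 genes. In PC9 the chain had 25.1 and 25.8 FPKM with ZNF263 and 23.7 and 22.9 FPKM with the control vector and did not pass the test (adjusted p = 0.282). HCC827 had 1.68 and 2.01 FPKM with ZNF263 and 1.41 and 1.56 FPKM with the control vector (adjusted p = 0.0576). COL16A1, another FACIT chain, rose slightly in H1975, to 1.81 and 1.78 FPKM with ZNF263, against 1.43 and 1.17 FPKM with the control vector (log2 change 0.28 ± 0.0711 (SE), limma adjusted p = 0.00354). COL21A1 rose in HCC827, with 3.19 and 3.17 FPKM with ZNF263, against 1.83 and 2.41 FPKM with the control vector (log2 change 0.43 ± 0.0834 (SE), limma adjusted p = 0.00375), but the call was lost with a pseudocount of 0.1 FPKM (adjusted p = 0.0835). COL9A2, a chain of cartilage collagen IX, passed the test in no line, and in HCC827, where it was highest, it had 2.11 and 2.15 FPKM with ZNF263 and 1.89 and 1.22 FPKM with the control vector (adjusted p = 0.0527).

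COL6A1 and COL6A2, chains of collagen VI, rose in all 3 lines. COL6A1 (chr21:45981737-46005050) and COL6A2 (chr21:46098097-46132849) lie next to each other on chromosome 21 and assemble with COL6A3 or a related chain into the beaded filament. COL6A1 had 46.8 and 44.1 FPKM with ZNF263, against 12.7 and 12.7 FPKM with the control vector, in H1975 (log2 change 1.76 ± 0.0815 (SE), limma adjusted p = 1.29e-09), and COL6A2 had 12.1 and 12 FPKM with ZNF263, against 1.58 and 1.36 FPKM with the control vector (log2 change 2.41 ± 0.0758 (SE), limma adjusted p = 5.05e-11). The gap between the groups was wide for both, and COL6A2 rose 8.22-fold and COL6A1 3.58-fold, so that COL6A1 over COL6A2 was 3.86 and 3.67 with ZNF263 and 8.05 and 9.33 with the control vector. In HCC827, COL6A1 had 10.7 and 11.9 FPKM with ZNF263, against 7.56 and 6.75 FPKM with the control vector (log2 change 0.59 ± 0.0815 (SE), limma adjusted p = 4.08e-04). COL6A2 there had 8.99 and 8.77 FPKM with ZNF263, against 4.5 and 4.16 FPKM with the control vector (log2 change 0.89 ± 0.0758 (SE), limma adjusted p = 1.27e-05, rank 28 of 12266). PC9 held the lowest levels. COL6A1 had 2.34 and 2.35 FPKM with ZNF263, against 1.37 and 1.07 FPKM with the control vector in PC9 (log2 change 0.59 ± 0.0815 (SE), limma adjusted p = 4.47e-04) and COL6A2 1.31 and 1.2 FPKM with ZNF263, against 0.596 and 0.72 FPKM with the control vector (log2 change 0.45 ± 0.0758 (SE), limma adjusted p = 0.00211). Both PC9 calls were lost in a fit of the 4 PC9 libraries alone (adjusted p = 0.0565 and 0.0522). The tested genes within 5 Mb had median log2 changes of 0.25 in H1975, 0.073 in HCC827 and 0.033 in PC9. With COL4A5, whose HCC827 call was lost in most alternatives, these were the 3 chains called higher in all 3 lines, where 1.1% of the 12218 genes with values in all lines were called higher in each, and 0 chains were called lower in each, where 0.499% of genes were.

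COL17A1 fell in H1975 more than any other chain tested. It encodes the hemidesmosomal collagen of basal epithelial cells (chr10:104031286-104085957) and had 19.1 and 19.4 FPKM with ZNF263, against 135 and 128 FPKM with the control vector, 6.79-fold lower with ZNF263 (log2 change -2.7 ± 0.0604 (SE), limma adjusted p = 5.63e-12, rank 17 of 12258 from the bottom). In HCC827 it was expressed and had 26.2 and 25.1 FPKM with ZNF263 and 26.5 and 25.3 FPKM with the control vector, groups that overlapped (adjusted p = 0.913), and in PC9 it did not exceed 0.043 FPKM. COL7A1, the anchoring fibril chain (chr3:48564073-48595267), also fell in H1975, with 26.1 and 25.2 FPKM with ZNF263, against 39.6 and 46.2 FPKM with the control vector (log2 change -0.72 ± 0.0846 (SE), limma adjusted p = 8.45e-06). In PC9 it had 12.7 and 12.3 FPKM with ZNF263 and 15.4 and 14.7 FPKM with the control vector, groups that did not overlap but did not pass the test (adjusted p = 0.0802), and in HCC827 0.401 and 0.545 FPKM with ZNF263 and 0.433 and 0.298 FPKM with the control vector. Without COL17A1, the chains of other types summed in H1975 to 112 FPKM with ZNF263 and 71.2 FPKM with the control vector.

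COL18A1, the basement membrane collagen from which endostatin is cut (chr21:45405137-45513720), rose in H1975 to 21.4 and 21.9 FPKM with ZNF263, against 10.2 and 9.82 FPKM with the control vector (log2 change 1.04 ± 0.0645 (SE), limma adjusted p = 1.95e-08). The tested genes within 5 Mb of COL18A1 had a median log2 change of 0.25 in H1975. Less that median its change was 0.79, and the call held. In HCC827 it had 43.8 and 40.3 FPKM with ZNF263, against 35.8 and 31.9 FPKM with the control vector (log2 change 0.31 ± 0.0645 (SE), limma adjusted p = 0.00589), a call that was lost without the first ZNF263 library (adjusted p = 0.0717). PC9 had 33.4 and 31.8 FPKM with ZNF263 and 36.3 and 35.8 FPKM with the control vector (adjusted p = 0.197). Of the exonic bases of COL18A1, 16.4% also belong to SLC19A1 on the other strand, and strand use in counting is not given in the sources used here, so reads from the 2 genes cannot be told apart in that stretch. COL13A1, a transmembrane collagen of cell adhesion sites (chr10:69801867-69964275), rose in H1975, with 5.37 and 5.73 FPKM with ZNF263, against 2.9 and 2.88 FPKM with the control vector (log2 change 0.75 ± 0.0869 (SE), limma adjusted p = 6.81e-06). It had 0.808 and 0.476 FPKM with ZNF263 and 0.45 and 0.438 FPKM with the control vector in HCC827 and did not exceed 0.0308 FPKM in PC9, without passing the test in either.

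The change with ZNF263 differed between the lines for 22 of the 24 chains by the limma F test, where 60.3% of all 12218 genes tested did, and the exceptions were COL4A1 (adjusted p = 0.931) and COL9A2 (adjusted p = 0.246). Some chains were nearly absent from a line, such as COL17A1 and COL8A1 from PC9 and COL4A3 and COL4A4 from H1975. Little change could show there on the log2(FPKM + 1) scale. For COL12A1 the change in H1975 exceeded that in PC9 by 3.36 ± 0.0939 (SE), adjusted p = 2.39e-10, and that in HCC827 by 3.29 ± 0.0939 (SE), adjusted p = 2.64e-10. The difference between HCC827 and PC9 for that chain was 0.071 ± 0.0939 (SE), adjusted p = 0.697, short of the threshold. For COL5A1, called in both H1975 and PC9, the H1975 change was larger by 2.15 ± 0.0911 (SE), adjusted p = 2.01e-09. On the log2(FPKM + 1) scale the PC9 change exceeded that of HCC827 (difference HCC827 minus PC9 -0.44 ± 0.0911 (SE), adjusted p = 0.00897). The HCC827 levels of COL5A1, at most 0.158 FPKM, lay far below the 1 FPKM added, which flattens a change. As a ratio of means COL5A1 rose 4.28-fold in HCC827, on 3 to 30 reads a library, and 1.57-fold in PC9. For COL6A2 the change in HCC827 exceeded that in PC9 by 0.45 ± 0.107 (SE), adjusted p = 0.021, on the log2(FPKM + 1) scale. For COL6A1 the same difference was 1.3e-05 ± 0.115 (SE), adjusted p = 1.0. Both results depend on that scale, since the PC9 levels were low. The ratio of means for COL6A2 was 2.05 in HCC827 and 1.91 in PC9, and for COL6A1 1.58 in HCC827 and 1.92 in PC9. With a pseudocount of 0.1 FPKM the COL6A2 changes were 1.02 in HCC827 and 0.84 in PC9. The COL6A1 changes were then 0.65 in HCC827 and 0.90 in PC9. The rise of COL4A3 in PC9 was larger than its change in HCC827 (HCC827 minus PC9 -0.82 ± 0.125 (SE), adjusted p = 0.00142), and the rise of COL3A1 in HCC827 was larger than its change in H1975 (H1975 minus HCC827 -0.95 ± 0.104 (SE), adjusted p = 7.48e-06). COL3A1 and COL24A1 were tested only because they reached 1 FPKM in the HCC827 libraries with ZNF263. Their differences between lines therefore follow in part from that minimum.

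The 20 chains below the minimum had at most 0.799 FPKM in any library. COL6A5 had no value in HCC827, and the cartilage and short-chain collagens COL2A1 and COL10A1 did not exceed 0.0402 FPKM in a library. When all genes were fitted with no minimum, 8 of the 20 passed the test in a line, and they are named after their values were seen. In H1975 these were 7, 4 higher and 3 lower, where 50.7% of all genes in that fit were called, 25.2% higher and 25.6% lower. In HCC827 1 passed, where 13.2% of all genes did, and in PC9 0 passed, where 7.65% did. Those shares include the genes above the minimum. They do not show how often genes as low as the 20 chains were called. In H1975, COL6A3, the third chain of the collagen VI filament, had 0.769 and 0.648 FPKM with ZNF263, against 0.20 and 0.183 FPKM with the control vector (log2 change 0.52 ± 0.0346 (SE), adjusted p = 4.15e-06). COL5A3, a further chain of collagen V, had 0.128 and 0.165 FPKM with ZNF263, against 0.0281 and 0.0152 FPKM with the control vector (log2 change 0.17 ± 0.0231 (SE), adjusted p = 3.47e-04). COL15A1 had 0.799 and 0.44 FPKM with ZNF263, against 0.382 and 0.235 FPKM with the control vector (log2 change 0.30 ± 0.0901 (SE), adjusted p = 0.0216), and COL14A1, a FACIT chain, did not exceed 0.115 FPKM (log2 change 0.13 ± 0.0165 (SE), adjusted p = 1.80e-04). COL28A1, COL9A3 and COL26A1 were lower with ZNF263 in H1975, at log2 changes of -0.39, -0.36 and -0.27, and COL23A1 was higher in HCC827 at 0.10. COL6A3 was thus higher in H1975, as were its partners COL6A1 and COL6A2, at a level under 1 FPKM.

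Genes that process collagen were taken from textbook lists. Those given with values had a log2 change of 1 or more in either direction, and P4HA1 and the genes given by name alone were named after their values were seen. Fewer of the listed genes were called in PC9 when 1 library was left out, as given in the last section. Of 22 tested genes that modify and fold the chains in the endoplasmic reticulum, 17 were higher and 1 lower with ZNF263 in H1975, where 32.1% of all genes tested were higher and 32.1% lower, with a median log2 change of 0.58 where the median of all genes was 0.0025. SERPINH1, the collagen chaperone HSP47, had 339 and 333 FPKM with ZNF263, against 94.5 and 96.8 FPKM with the control vector (log2 change 1.8 ± 0.0499, SE, adjusted p = 2.11e-11). COLGALT1, which adds galactose to hydroxylysine, had 205 and 201 FPKM with ZNF263, against 63.4 and 59.7 FPKM with the control vector (log2 change 1.71 ± 0.0597, SE, adjusted p = 1.14e-10). P3H3, of the prolyl 3-hydroxylase family, had 33 and 34.2 FPKM with ZNF263, against 8.77 and 9.19 FPKM with the control vector (log2 change 1.79 ± 0.0724, SE, adjusted p = 3.89e-10). CREB3L1, a transcription factor that drives type I collagen in bone, had 30.5 and 30.9 FPKM with ZNF263, against 7.07 and 8.51 FPKM with the control vector (log2 change 1.85 ± 0.0828, SE, adjusted p = 9.80e-10). The 1 gene that fell was P4HA1, a catalytic subunit of prolyl 4-hydroxylase, with 40.9 and 40.5 FPKM with ZNF263, against 62.7 and 61.7 FPKM with the control vector (log2 change -0.60 ± 0.0643, SE, adjusted p = 3.34e-06). In PC9, where 7.21% of all genes were higher and 4.12% lower, 1 of the 22 was higher, SERPINH1, and 4 were lower, P4HA1, P3H2, FKBP10 and FKBP14, with a median of -0.0066. In HCC827, where 13% of all genes were higher and 6.44% lower, 3 were higher, P3H2, TMEM38B and CREB3L2, and 2 were lower, P4HA1 and MIA2, with a median of -0.053.

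Of 4 tested cross-linking oxidases, 3 were higher and 0 lower in H1975, a small list beside 32.1% of all genes in each direction. LOX, which starts the cross-links of fibrils, had 135 and 133 FPKM with ZNF263, against 24.2 and 23.8 FPKM with the control vector (log2 change 2.44 ± 0.0767, SE, adjusted p = 5.05e-11), and LOXL2 had 285 and 282 FPKM with ZNF263, against 121 and 123 FPKM with the control vector (log2 change 1.21 ± 0.053, SE, adjusted p = 7.91e-10). The other one higher was LOXL4. In PC9 1 was higher, LOX, and 0 lower, and in HCC827 0 were higher and 1 lower, LOXL2. Of 5 tested genes for removal of the propeptides, 2 were higher and 1 lower in H1975, or 3 called in all, where 64.2% of all genes were called. BMP1, the C-propeptide protease, had 31.5 and 30 FPKM with ZNF263, against 11.6 and 11.3 FPKM with the control vector (log2 change 1.35 ± 0.0636, SE, adjusted p = 1.51e-09), and TLL2, a related protease, had 1.48 and 1.26 FPKM with ZNF263, against 12.4 and 13.7 FPKM with the control vector (log2 change -2.56 ± 0.0735, SE, adjusted p = 2.78e-11). PCOLCE2, which enhances that protease, was the other gene higher. In PC9 1 of the 5 was higher, BMP1, and 0 lower, and in HCC827 2 were higher, TLL1 and PCOLCE, and 0 lower.

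Of 7 tested receptors 3 were higher and 3 lower in H1975, and of 6 degrading enzymes 1 was higher and 2 were lower, where 32.1% of all genes were higher and 32.1% lower, so that calls in both directions were what genes in general showed. ITGA11, the alpha subunit of an integrin that binds fibrillar collagen, had 3.54 and 3.12 FPKM with ZNF263, against 0.343 and 0.27 FPKM with the control vector (log2 change 1.73 ± 0.0704, SE, adjusted p = 4.07e-10), and ITGA2, of the epithelial collagen integrin, had 30.5 and 30.1 FPKM with ZNF263, against 89.2 and 87.1 FPKM with the control vector (log2 change -1.51 ± 0.0903, SE, adjusted p = 1.40e-08). ITGA10 and ITGB1 were the others higher, and DDR1 and MRC2 the others lower. In PC9 1 receptor was higher, DDR1, and 2 were lower, ITGA2 and MRC2, and in HCC827 1 was higher, MRC2, and 0 lower. Among the degrading enzymes, the interstitial collagenase MMP1 in H1975 had 1.6 and 1.72 FPKM with ZNF263, against 22.1 and 19.4 FPKM with the control vector (log2 change -3.03 ± 0.0951, SE, adjusted p = 5.05e-11). MMP13 was the other enzyme lower and MMP9 the one higher. In PC9 0 were higher and 1 lower, MMP2, and in HCC827 2 were higher, MMP1 and MMP13, and 1 lower, MMP9.

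Proteins that sit on or organise collagen fibrils had 3 of 6 higher and 2 lower in H1975, where 64.2% of all genes were called. SPARC, a collagen-binding matrix protein, had 112 and 111 FPKM with ZNF263, against 20.7 and 19.8 FPKM with the control vector (log2 change 2.4 ± 0.0643, SE, adjusted p = 1.61e-11). FN1, fibronectin, on which fibrils form, had 312 and 315 FPKM with ZNF263, against 124 and 121 FPKM with the control vector (log2 change 1.35 ± 0.0525, SE, adjusted p = 2.81e-10), and LUM, the fibril proteoglycan lumican, had 0.0993 and 0.164 FPKM with ZNF263, against 1.89 and 1.79 FPKM with the control vector (log2 change -1.33 ± 0.0906, SE, adjusted p = 4.82e-08). TNC was the third one higher and THBS1 the other one lower. In PC9 SPARC, FN1 and TNC were higher and 0 lower, and in HCC827 1 was higher, FN1, and 1 lower, THBS1.

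Markers of cell types moved in H1975 beside the collagens. The 8 epithelial markers summed to 1497 to 1527 FPKM with ZNF263, against 2486 to 2537 FPKM with the control vector, and 7 of the 8 were lower and 1, KRT8, was higher. In bulk libraries, fewer cells of a type and less RNA per cell cannot be told apart. Of 9 fibroblast markers 7 had values in H1975, and they summed to 1.49 to 2.06 FPKM with ZNF263 and 1.98 to 2.06 FPKM with the control vector in H1975. PDGFRA and THY1 were at 0 in both H1975 libraries with ZNF263, and DPT and TCF21 had no value in H1975. Of the 2 fibroblast markers tested, PDGFRB was higher and LUM lower. Smooth muscle or pericyte markers summed to 3.58 to 4.21 FPKM with ZNF263 and 4.83 to 4.98 FPKM with the control vector, and endothelial markers to 0.799 to 0.819 FPKM with ZNF263 and 0.715 to 0.84 FPKM with the control vector. Leukocyte markers summed to 60.9 to 63.6 FPKM with ZNF263 and 91.7 to 93 FPKM with the control vector, with CD68 and CD79A, the 2 tested, both lower. Nearly all of that sum was CD68, with means of 61.4 FPKM with ZNF263 and 82 FPKM with the control vector, and CD79A, at 0.671 and 10.3 FPKM. PTPRC did not exceed 0.00465 FPKM in H1975, so the sum does not show that leukocytes were present. In PC9 the epithelial markers summed to 3440.1 to 3622 FPKM with ZNF263 and 2258 to 2283 FPKM with the control vector, and in HCC827 to 2723 to 2851 FPKM with ZNF263 and 2717 to 3035 FPKM with the control vector. In PC9 CDH1, KRT8 and KRT18 were higher and 0 lower, and in HCC827 CLDN4 was higher and KRT19 lower. All 8 epithelial markers reached 1 FPKM in HCC827 and H1975, but in PC9 only 3 did (CDH1, KRT8 and KRT18), EPCAM did not exceed 0.414 FPKM, and KRT19 and ESRP1 were at 0 in both PC9 control libraries. The part of the epithelial change in the collagen changes of H1975 was not tested.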

How the data were processed

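Per the labels' protocols, TRIZOL was used to isolate RNA and the sequencing libraries came from a SMARTER mRNA-seq kit. The authors deposited 1 FPKM column per library, 12 in all, made on genome build GRCh38.p13 per the submitters' processing notes. Which aligner, counter, annotation and strand option were used is not given in the sources used here. An unexplained OR follows each line's name in the titles. Of 20030 rows, 27 whose gene names had become dates were dropped. With no library totals in the table, relative depth was read from the steps between FPKM values, which fell on whole reads for 99.2% to 99.6% of genes and for 4.07% to 4.47% of shuffled values. Replicate libraries differed by more than sampling and were counted separately.

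Genes that reached 1 FPKM in 2 or more libraries were fitted as log2(FPKM + 1) with limma 3.58.1 in R 4.3.3 (trended prior variance), using 1 mean for each of the 6 groups and 1 common spread. Log2 changes refer to that scale and understate the change of low genes. The fit gave the two-sided test of ZNF263 minus control within each line and an F test of whether the change differed between lines. P-values were adjusted by Benjamini-Hochberg over all genes of a comparison, with 0.05 as the threshold for a call. The fit was tested on simulated data. Gene positions are from GENCODE (GRCh38), upstream windows from RefSeq (GRCh38.p14), and both strands were searched for motifs. Of the 24 chains tested, 7 share exonic bases with another gene and 4 of them with a gene on the other strand.

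The chains and lists were chosen with earlier results of these data known. Values in every library are given for chains called in at least 1 line at an absolute log2 change of at least 0.5 and for their partner chains. From the lists, called genes with an absolute log2 change of at least 1 are named, at most the 4 with the largest change per list and line.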

Additional observations from a re-analysis of the deposited data

Results flagged for a closer look

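The change of 22 collagen chains with ZNF263 differed between lines (limma F test, adjusted p under 0.05 over 12218 genes). The value in brackets is, for each chain, the largest difference between the log2 changes of 2 lines. The change in H1975 was above that in PC9 for COL12A1 (3.36), COL8A1 (3.36), COL6A2 (1.96), COL18A1 (1.18), COL6A1 (1.17), COL13A1 (0.75) and COL16A1 (0.37), and below it for COL17A1 (-2.7), COL4A3 (-1.06), COL1A1 (-0.86) and COL4A4 (-0.70). Against HCC827, the change in H1975 was above for COL1A2 (3.44), COL5A1 (2.6), COL4A6 (1.03), COL4A5 (0.63) and COL5A2 (0.41), and below for COL7A1 (-0.82), COL27A1 (-0.68) and COL24A1 (-0.35). The change in HCC827 was above that in PC9 for COL3A1 (1.13) and COL21A1 (0.45), and below it for COL4A2 (-0.43). COL3A1 and COL24A1 passed the expression minimum only through the HCC827 libraries with ZNF263, so their differences follow in part from that minimum. Many of the 22 differences set a change in 1 line against a line where the chain was nearly absent or under 1 FPKM. There log2(FPKM + 1) could show little change. COL17A1 did not exceed 0.043 FPKM and COL13A1 0.0308 FPKM in PC9, and COL8A1 did not exceed 0.0172 FPKM there. COL3A1 reached at most 0.040 FPKM, COL21A1 0.0864 FPKM and COL16A1 0.674 FPKM in PC9. In HCC827 the highest values were 0.349 FPKM for COL1A2, 0.158 FPKM for COL5A1, 0.208 FPKM for COL4A6 and 0.286 FPKM for COL5A2. COL27A1 and COL7A1 reached at most 0.196 and 0.545 FPKM there. In H1975, COL4A3 and COL4A4 did not exceed 0.0177 FPKM and COL24A1 0.0126 FPKM. Such differences alone do not show that the lines respond differently. The neighbours within 5 Mb of COL4A6 and COL4A5 were higher in H1975 as well, as given above. Groups of 2 libraries are too small to look for single outlying libraries. The cause of these differences was not tested.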

How the results depend on the processing

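Of the 32 called changes of single chains, 23 kept their call under every alternative tried, 9 lost it in at least 1 and 0 reversed. The alternatives were a pseudocount of 0.1 FPKM, no minimum, a minimum of 3 FPKM, median-of-ratios scaling, quantile normalization, a replicate block, the change less that of neighbouring genes, each line alone, and leaving out 1 library. The main fit gave a chain the same SE in every line, although replicate spread was not equal. Among genes with 100 or more reads, the mean chi-square of replicates against sampling was 8.81 for HCC827 controls. It was 2.19 for PC9 controls and 4.91 for H1975 controls. For genes with 10 to 99 reads it was highest in H1975 (3.5 and 3.64). The common SE may be too small for some HCC827 chains. Fits of 1 line alone gave 3 chains called in PC9 and 4 in HCC827, from fewer libraries and with that line's own spread. They ended the calls of COL21A1, COL24A1, COL18A1, COL4A2 and COL4A5 in HCC827 (adjusted p = 0.0804, 0.0535, 0.0982, 0.133 and 0.173) of COL3A1 in H1975 (0.075) and, beside COL6A1 and COL6A2, of COL4A5 in PC9 (0.0547). Leaving out 1 library gave 5 to 6 chains called in PC9, 7 to 11 in HCC827 and 16 to 17 in H1975, and 7 to 8 genes of the collagen-related lists in PC9 where 14 were called with all libraries. A pseudocount of 0.1 FPKM enlarged 12 of the 32 called changes by over 1.5 times, to 1.72 for COL4A3, 1.05 for COL4A4, 0.90 for COL6A1 and 0.84 for COL6A2 in PC9, 2.35 for COL3A1, 1.1 for COL8A1 and 0.60 for COL24A1 in HCC827, and 2.28 for COL4A5, 1.59 for COL4A6, 0.83 for COL3A1, 0.71 for COL5A2 and 0.44 for COL16A1 in H1975. It ended the calls of COL4A2, COL4A5 and COL21A1 in HCC827. Same-numbered libraries did not deviate together (correlations 0.037 in PC9, 0.089 in HCC827 and -0.043 in H1975), so the numbers do not pair them. With a replicate block the counts were 6 in PC9, 9 in HCC827 and 16 in H1975, and 22 chains differed between lines, with COL4A5 in HCC827 and COL3A1 in H1975 no longer called (adjusted p = 0.0545 and 0.0512). In H1975 the class sums were also taken without the highest chain of each class. The fibrillar sum was then 86 FPKM with ZNF263 and 35.2 with the control vector. The network sum was 4.51 with ZNF263 and 1.23 with the control vector, and the FACIT sum 2.45 with ZNF263 and 1.98 with the control vector. The sum of other types was 112 with ZNF263 and 71.2 with the control vector, so that this last direction turned. Median-of-ratios scaling moved the H1975 control sum of other types to 203 FPKM. Chains under 1 FPKM rest on few reads, and their changes are the least precise.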
